A study of Mus musculus with 16 samples.

Results

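The 9 genes studied here are among those that anchor basal keratinocytes to the basement membrane, and they were followed by RNA-seq and ribosome profiling in mouse hair follicle stem cell organoids. They were chosen by gene symbol: Itga6, Itgb4, Cd151, Col17a1, Plec, Dst, Lama3, Lamb3 and Col7a1. All 9 were found among the 22612 genes of the count tables, and for each gene the transcript with the most ribosome footprints over the 8 Ribo-seq libraries was kept. Of 14224 genes tested by RNA-seq and 8440 tested by Ribo-seq, the members contributed 9 to each.

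Epidermal cells of C57BL/6J mice were kept as 3D–3C organoids, a culture that holds hair follicle stem cells (HFSCs) and their progeny together, for 2 weeks and then sorted by flow cytometry into α6+/CD34− progenitors and α6+/CD34+ HFSCs. Part of the cultures received N1-acetylspermidine (N1-AcSpd), an acetylated polyamine, for 72 h, and the rest were left untreated. Each of the 4 groups (untreated progenitors, treated progenitors, untreated HFSCs and treated HFSCs) had 2 RNA-seq and 2 Ribo-seq libraries, 16 in all, and replicates 1 and 2 came from 2 donor mice. The p-values rest on a spread between libraries of the same group, estimated over the 4 groups of an assay together. The same 2 mice supplied all 4 groups, and the main fits had no term for the mouse. Libraries of the same mouse were thus treated as independent. The labels name no altered genotype, both sorted populations carried integrin α6 on their surface because the gate required it, and in sorted bulk cells fewer cells expressing a gene and less RNA per cell cannot be told apart.

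Hemidesmosomes are the junctions that rivet basal keratinocytes to the basement membrane. Integrin α6β4 (Itga6, Itgb4) and collagen XVII (Col17a1) span the membrane, the tetraspanin CD151 associates with the integrin, and the plakins plectin (Plec) and BPAG1e (an epithelial product of Dst) tie the junction to keratin filaments inside the cell. Outside, the integrin binds a laminin that holds the α3 and β3 chains (Lama3, Lamb3), which is held to the dermis by anchoring fibrils of collagen VII (Col7a1). Inherited loss of many of these genes causes skin blistering, and collagen XVII is known for its part in maintaining HFSCs.

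Library depth and the sort were checked first. The RNA-seq libraries held 21612795 to 31524062 counts and the Ribo-seq libraries 34475 to 268052, the lowest being untreated progenitor replicate 1, so a footprint value is far less precise than an RNA value. Cd34, the gene of the sort, stood at 2.4 to 5.4 CPM (counts scaled to the library total after TMM normalization) in the 4 progenitor RNA-seq libraries and at 67.4 to 89.9 CPM in the 4 HFSC libraries. The 3 basal keratinocyte markers summed to between 33220 and 39690 CPM, whereas the summed markers of fibroblasts, melanocytes, immune cells and endothelial cells stayed between 0.627 and 13.6 CPM in the RNA-seq libraries, with Lum, Cd207, Cdh5 and Cldn5 at 0 counts in all 8. In 3 of the 4 groups the RNA-seq libraries of the same mouse deviated together (r = 0.35 to 0.59 over 12256 genes), whereas the treated HFSC libraries deviated against the mouse numbers of the others (r = −0.57 to −0.40). The comparisons within progenitors and within untreated cells do not contrast those libraries. There they enter through the minimum mean count, the TMM scaling and the estimate of the spread.

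In GRCm38 the kept transcripts lie at chr2:71786978-71856758 (Itga6), chr11:115977786-116008412 (Itgb4), chr7:141467393-141471473 (Cd151), chr19:47646344-47692094 (Col17a1), chr15:76170976-76195710 (Plec) and chr1:193301993-193343878 (Lamb3), and those of Dst and Col7a1 are given below. The choice of transcript matters most for Dst. The kept Dst transcript, Dst-213, is the epithelial BPAG1e form (GRCm38 chr1:34160330-34183904, plus strand, 24 exons, 2639 codons). It shares its first 22 exons, 3315 bases, with the long plakin form Dst-215, after which the transcripts part: Dst-213 enters a coding exon of 2703 bases at chr1:34177796-34180498, and Dst-215 a coding exon of 129 bases at chr1:34184016-34184144. The spliced sequence across this branch is shown because it separates the hemidesmosomal form from the cytoskeletal one, with the last 30 shared bases in lower case and the first 30 form-specific bases in capitals.
Dst-213: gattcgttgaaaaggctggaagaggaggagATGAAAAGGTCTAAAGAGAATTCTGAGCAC
Dst-215: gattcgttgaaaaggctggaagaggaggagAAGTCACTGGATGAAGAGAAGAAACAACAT
Over 8 libraries of each assay Dst-213 held 243023 RNA-seq counts and 933 footprints, and Dst-215 120401 counts and 403 footprints. Reads in shared exons were counted for each transcript that holds them (the transcripts Cd151-201 and Cd151-202 both carried 24893 RNA-seq counts), so these totals are not exclusive. The transcripts Dst-204 and Dst-220 lie wholly downstream of the branch and share no exon with Dst-213. Per kb of exon, the RNA-seq counts of Dst-204 were 5.84% of those of Dst-213 (range over 8 libraries 5.12% to 7.31%) and those of Dst-220 were 4.24% (3.25% to 4.80%). In all 8 RNA-seq libraries the exons downstream of the branch were thus read at a small share of the density of the epithelial form.

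The promoter of Col7a1 is printed because it is the member whose transcript level passed the test with treatment, as described below. The kept Col7a1 transcript covers chr9:108953745-108984875 on the plus strand in 118 exons, and the RefSeq window (GRCm38.p6, 250 bases before to 50 after the annotated start, chr9:108953336-108953635) reads as follows, with a GC box (GGGCGG) in capitals.
Col7a1: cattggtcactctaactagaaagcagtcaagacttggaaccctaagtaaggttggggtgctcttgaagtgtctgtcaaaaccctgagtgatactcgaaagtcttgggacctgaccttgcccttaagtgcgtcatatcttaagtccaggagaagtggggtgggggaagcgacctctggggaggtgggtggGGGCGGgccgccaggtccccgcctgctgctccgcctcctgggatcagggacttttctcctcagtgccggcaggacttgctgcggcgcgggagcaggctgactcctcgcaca
The window is set on the first base of the transcript Col7a1-202, which carried the same 44185 RNA-seq counts as the kept one. The GC box begins at −61 from the start site, and the window has 58.67% G and C against a median of 52.67% for all 32851 promoters. Windows were used for 5 of the 9 members, 8 in total, for Cd151, Col17a1, Col7a1, Dst and Lamb3. Lama3 was left out of the search. On either strand, GGGCGG was in the windows of the upstream Cd151 start (chr7:141467112-141467411), Col7a1 and the upstream Dst start, and in 35.66% of all promoters. The downstream Cd151 window (chr7:141468539-141468838) had none. TGANTCA, the AP-1 consensus, was in 0 of the 8 windows and in 7.81% of all promoters. The Dst gene has separate starts: the window of the upstream one (chr1:34011345-34011644) had 70.33% G and C and 4 GC boxes, and that of the epithelial one (chr1:34160010-34160309) had 46.0% and none. TATAAA was found in the Col17a1 window (chr19:47691993-47692292) at 2 places, and in 13.62% of all promoters. These matches describe letters in the windows and do not show that a factor binds.

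The members lay between the 78.5th and 99.1st percentile of tested genes by RNA-seq level per length. Col17a1 was the most and Col7a1 the least abundant member in each of the 8 RNA-seq libraries. Values below are the mean over the 8 RNA-seq libraries of CPM per kb of exon (reads per kb make genes of different length comparable), with SD over the 8 libraries. Col17a1 ranked first at 755.5 ± 68.2 CPM per kb. Itgb4 followed at 464 ± 46.7, and Itga6, its partner, at 203 ± 24.3 CPM per kb. The ranges of these 3 genes did not overlap each other (639.5 to 850.2, 380.7 to 512.2 and 159.8 to 228.1). The laminin chains Lamb3 (179.7 ± 17.8) and Lama3 (137.5 ± 21.7) and the plakin Dst (136.1 ± 24.7) formed a middle group with overlapping ranges, and Itga6 overlapped Lamb3. Plec (82.7 ± 14.0) overlapped Cd151 (65.1 ± 4.52). Col7a1 was the lowest at 23.2 ± 5.17 CPM per kb, its range of 16.2 to 29.2 lying below those of the other 8. Itga6 was at 0.44 of the Itgb4 level per kb (median of 8 libraries, 0.31 to 0.60), although the proteins form a heterodimer, and Lama3 was at 0.78 of Lamb3 (0.67 to 0.86).

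**Figure D1:**
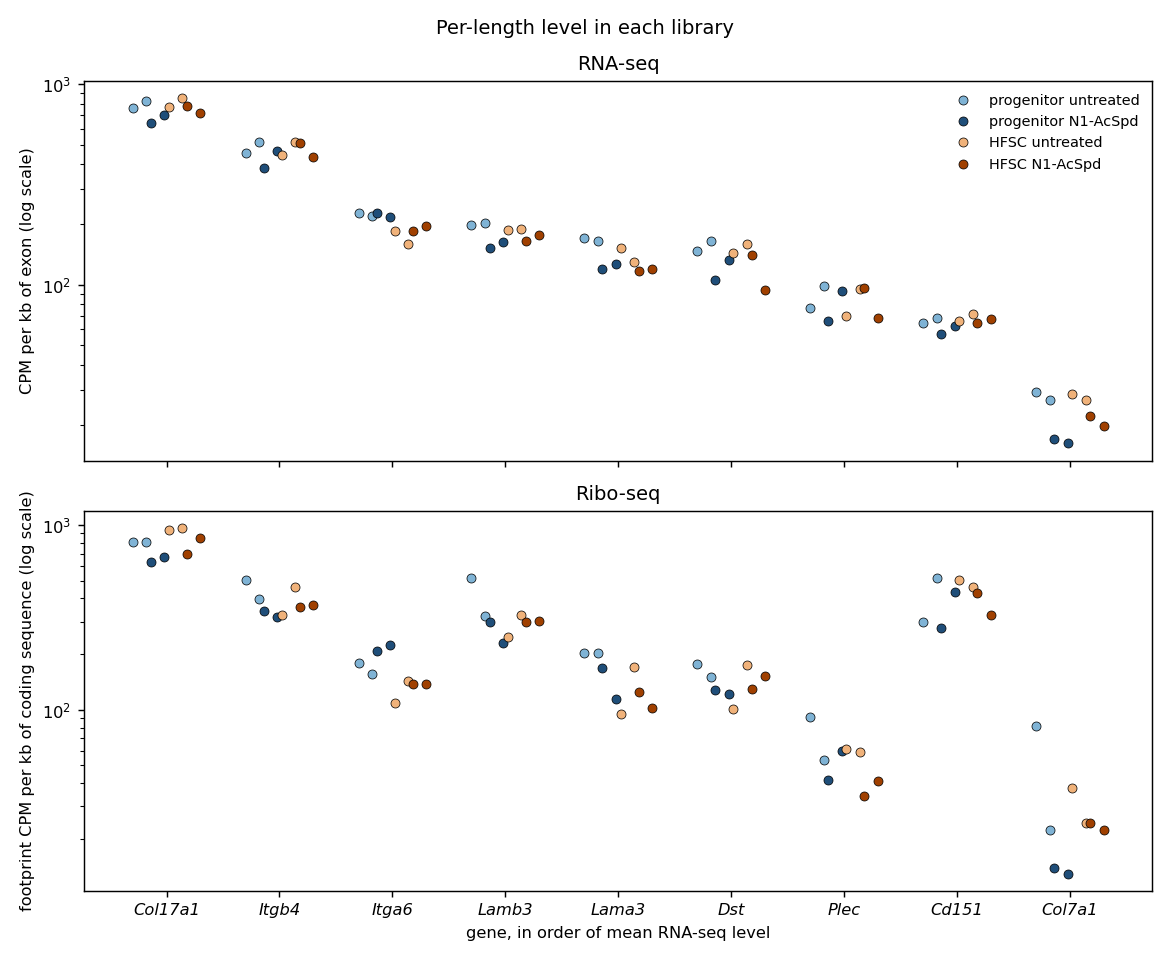
Level of each member per kb in the 8 RNA-seq libraries (top) and the 8 Ribo-seq libraries (bottom, per kb of coding sequence), on log axes, 1 point per library coloured by group. Col17a1 lies highest and Col7a1 lowest in both assays, while Cd151 is next to lowest in RNA-seq and at the level of Itgb4 in Ribo-seq.

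In footprints per kb of coding sequence the order changed for Cd151. Cd151, the short tetraspanin with 759 coding bases, stood at 405 ± 93.3 CPM per coding kb and thus level with Itgb4 at 385 ± 66.5, having been next to last by RNA. Its footprint level per message level was 6.23, in the 86.03rd percentile of the 8427 genes compared, and the other 8 members lay between 0.67 (Plec) and 1.77 (Lamb3). The median of the 9 was 1.05 against 2.23 for all 8427 genes. This ratio depends on the transcript kept and on the exon bases outside the coding part, so it is a description with no test. Footprints per coding kb were highest on Col17a1 (796 ± 122) and lowest on Col7a1 (13.0 to 82.1).

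The first comparison asked what N1-AcSpd did to these genes. Col7a1 transcripts fell. They stood at 268 and 245 CPM in untreated progenitors, 157 and 149 in treated progenitors, 262 and 244 in untreated HFSCs, and 203.6 and 181 in treated HFSCs. All 4 treated libraries lay below all 4 untreated ones, and the treated progenitors lay lowest. The share of all tested genes whose libraries separate in this way was not computed, so here and below non-overlap is a description alone. Averaged over the cell types, the log2 fold change was −0.57 (SE 0.0754), a fall of 32.7% with adjusted p = 0.012 (edgeR quasi-likelihood test, Benjamini-Hochberg adjustment over 14224 genes). The fall was seen in 4 of 4 mouse-matched pairs, from −0.77 to −0.37 on the log2 scale. It was the 1 member called in this comparison, with 1.64% of all tested genes called. At an unadjusted p under 0.05 there were 4 members, against 15.6% of all genes. The fitted value was below 0 for 8 of 9 members (median −0.18), and for 52.89% of all tested genes (median −0.01).

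The Col7a1 call was made in 15 of 16 other settings for the mean over cell types, with log2 fold changes of −0.62 to −0.52, and was lost without RNA-seq untreated progenitor replicate 1 (adjusted p = 0.0621). Within progenitors the log2 fold change was −0.75 (SE 0.107, adjusted p = 0.045), and 0.239% of genes were called. That call held in 5 of 14 alternatives, with adjusted p from 8.49e-06 to 0.381. It was lost in the fit with the mouse as a block (adjusted p = 0.0596) and in the one without the treated HFSC libraries (adjusted p = 0.0506, log2 fold change −0.74). It was lost likewise in each of the 4 fits that leave out 1 progenitor library. Within HFSCs Col7a1 was lower by −0.39 (SE 0.106) on the log2 scale with adjusted p = 0.366, in a comparison where 0% of genes were called. The difference between the cell types in this change was 0.35 (SE 0.150, unadjusted p = 0.0443, adjusted p = 1.0), and 0% of genes were called for the interaction (0 members by edgeR, 1 at an unadjusted p under 0.05, and 0 by DESeq2). DESeq2 called Col7a1 in progenitors too, with a log2 fold change of −0.73, and 0 of 9 members in HFSCs (1 of 9 at unadjusted p under 0.05; edgeR 2 of 9).

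Markers of suprabasal and cornifying keratinocytes moved with treatment. The 8 markers summed to 473 to 481 CPM in untreated progenitors and 782 to 1052 CPM in treated progenitors, and to 235 to 324 CPM in untreated HFSCs and 321 to 433 CPM in treated HFSCs. The 11 HFSC identity genes summed to 518 to 618 CPM in untreated and 382 to 447 CPM in treated progenitors, and to 1306 to 1653 and 844.5 to 1089 CPM in untreated and treated HFSCs. Each sum weighs its most abundant genes most, and directions gene by gene are not given here. Cd34, which is among the 11, did not fall. Its mean was 2.96 CPM in untreated and 3.88 CPM in treated progenitors, and 77.1 and 79.0 CPM in untreated and treated HFSCs. The part of the 2 marker sets in the Col7a1 result was not tested.

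The fitted values of the laminin chains were also below 0, without passing the test in edgeR. Lama3 transcripts stood at 948 and 916 CPM in untreated progenitors, 666 and 704 in treated progenitors, 845 and 717 in untreated HFSCs, and 651 and 663 in treated HFSCs. All 4 treated libraries lay below the 4 untreated ones. Averaged over cell types the log2 fold change was −0.35 (unadjusted p = 0.0017, adjusted p = 0.0735 by edgeR), with −0.44 within progenitors and −0.25 within HFSCs, and DESeq2 called it with adjusted p = 0.00741. Lamb3 stood at 802 and 823 CPM in untreated progenitors, 618 and 666 in treated progenitors, 762 and 767 in untreated HFSCs, and 671 and 722 in treated HFSCs, again without overlap. Its log2 fold change was −0.24 (adjusted p = 0.143), with −0.34 within progenitors and −0.13 within HFSCs. Dst also did not overlap between treated (829 to 1233 CPM) and untreated libraries (1267 to 1447 CPM), with a log2 fold change of −0.38 and adjusted p = 0.219 (−0.39 within progenitors, −0.37 within HFSCs), and its lowest value, 829 CPM, was in treated HFSC replicate 2. Lama3, Lamb3 and Dst transcripts, like those of Col7a1, were lower in 4 of 4 mouse-matched pairs. Since their treated and untreated libraries did not overlap, this does not rest on the mouse numbers of the treated HFSC libraries. Cd151 transcripts, whose libraries overlapped, were lower in 4 of 4 pairs as numbered (−0.19 to −0.03 on the log2 scale). For Cd151 the count does rest on those mouse numbers: treated HFSC replicate 2 (126.4 CPM) lay above untreated HFSC replicate 1 (122.4 CPM). The share of all genes lower in 4 of 4 pairs was not computed.

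Itga6, Itgb4, Cd151, Col17a1 and Plec overlapped between treated and untreated libraries. Col17a1 stood at 4240.5 and 4611 CPM in untreated progenitors, 3573 and 3919 in treated progenitors, 4298.5 and 4751 in untreated HFSCs, and 4372 and 4008 in treated HFSCs. Its log2 fold change over both cell types was −0.18, that of Itgb4 −0.10, that of Cd151 −0.11 and that of Plec −0.07. Within progenitors the values were −0.24, −0.19, −0.16 and −0.13 in the same order. In Itga6, Itgb4, Col17a1, Plec and Dst the treated HFSC replicates ran opposite to the other 3 groups: Plec was at 1438.5 CPM in replicate 1 and 1018.5 CPM in replicate 2 there, and higher in replicate 2 elsewhere. Itga6 had a log2 fold change of 0.07 (−0.01 within progenitors), making it the single member whose fitted value was above 0. Of its mouse-matched pairs, the HFSC pair of mouse 2 was at 0.30 on the log2 scale, and the rest ran from −0.02 to 0.005. For Itga6, Itgb4, Cd151, Col17a1 and Plec, the adjusted p was above 0.05.

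**Figure D2:**
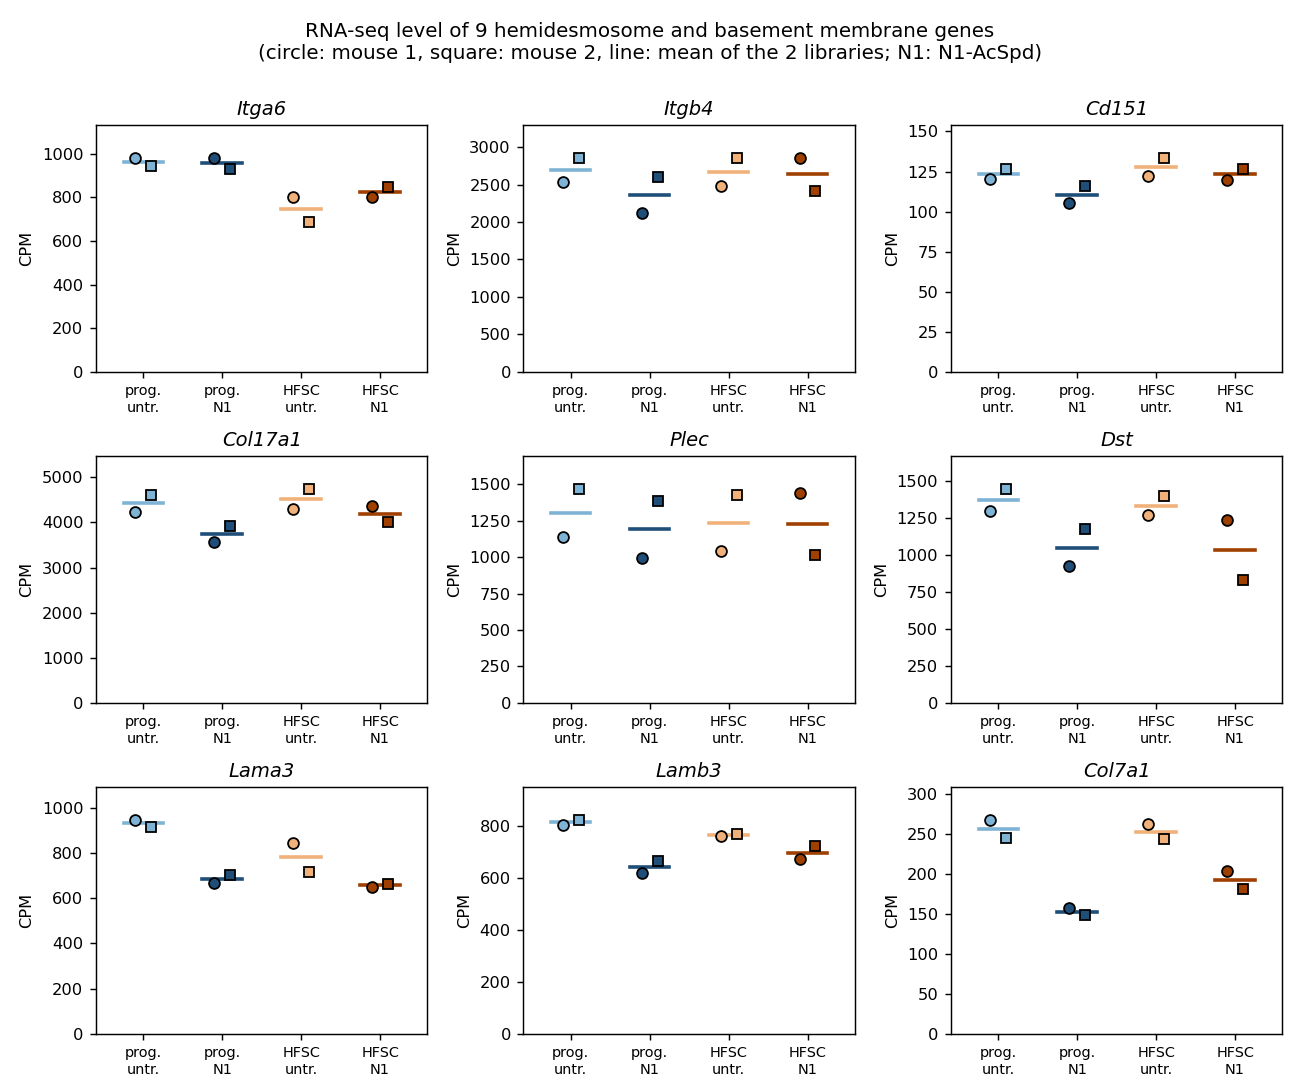
RNA-seq level in CPM of each of the 9 members in each library, 1 panel per gene, with a circle for mouse 1, a square for mouse 2 and a line at the mean of the 2 libraries. Col7a1, Lama3, Lamb3 and Dst show all treated libraries below all untreated ones. The share of all tested genes that do so was not computed.

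Ribosome footprints were fewer and their errors wider. Col7a1 carried 29 and 49 footprints in untreated progenitors, 10 and 7 in treated progenitors, 19 and 27 in untreated HFSCs, and 31 and 12 in treated HFSCs. Scaled to depth these were 725 and 197 CPM, 124 and 115 CPM, 331 and 215.1 CPM, and 215.1 and 198 CPM, so that the treated progenitors were lowest and the treated HFSCs overlapped the untreated. The log2 fold change over both cell types was −1.05 (SE 0.388, unadjusted p = 0.00681, adjusted p = 0.787), and −1.75 within progenitors (adjusted p = 0.890). Col7a1 footprints were lower in 4 of 4 mouse-matched pairs, from −2.55 to −0.12, as were those of Cd151 and Col17a1. The share of all genes with footprints lower in 4 of 4 pairs was not computed, so this count is a description alone. The fitted footprint value was below 0 for 8 of 9 members and for 52.63% of all tested genes. Of the 9 members, 0 were called by edgeR and 0 by DESeq2 over both cell types, with 0.0711% of all genes called. At an unadjusted p under 0.05 edgeR gave 2, Col7a1 and Plec, against 4.83% of all genes, and DESeq2 3. The value rested on the untreated progenitor libraries: without replicate 2 the log2 fold change was −1.49 and passed the test (adjusted p = 0.0472), and without replicate 1, the shallowest library, it was −0.56. Within progenitors the corresponding values were −2.60 and −0.74.

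Lama3, Lamb3 and Dst, whose RNA-seq libraries did not overlap between treatments, overlapped between treatments in the HFSC Ribo-seq libraries. Within progenitors their footprint log2 fold changes were −0.52, −0.62 and −0.38, and within HFSCs −0.24, 0.04 and 0.00. Each was higher with treatment in the HFSC pair of mouse 1, by 0.40, 0.26 and 0.35 on the log2 scale, and lower in the other 3 pairs.

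Plec, the plakin whose kept transcript has the longest coding sequence of the 9, had 50 and 182 footprints in untreated progenitors, 46 and 50 in treated progenitors, 48 and 101 in untreated HFSCs, and 67 and 34 in treated HFSCs. As CPM these ran from 465 in treated HFSC replicate 1 to 1250.7 in untreated progenitor replicate 1. Its log2 fold change was −0.58 (SE 0.288, unadjusted p = 0.0436, adjusted p = 1.00), while its RNA-seq log2 fold change was −0.07. The footprint value ran from −0.80 (without untreated progenitor replicate 2) to −0.42 (without untreated progenitor replicate 1) when 1 library was left out, and was −0.20 without mouse 1 and −0.99 without mouse 2. In progenitors 0 of 9 members passed the adjusted test in Ribo-seq by edgeR or DESeq2, with 0.0237% of all genes called, and 1 was at an unadjusted p under 0.05 with each tool (Col7a1 in edgeR). In HFSCs 0 members passed either threshold with either tool, with 0% called.

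**Figure D3:**
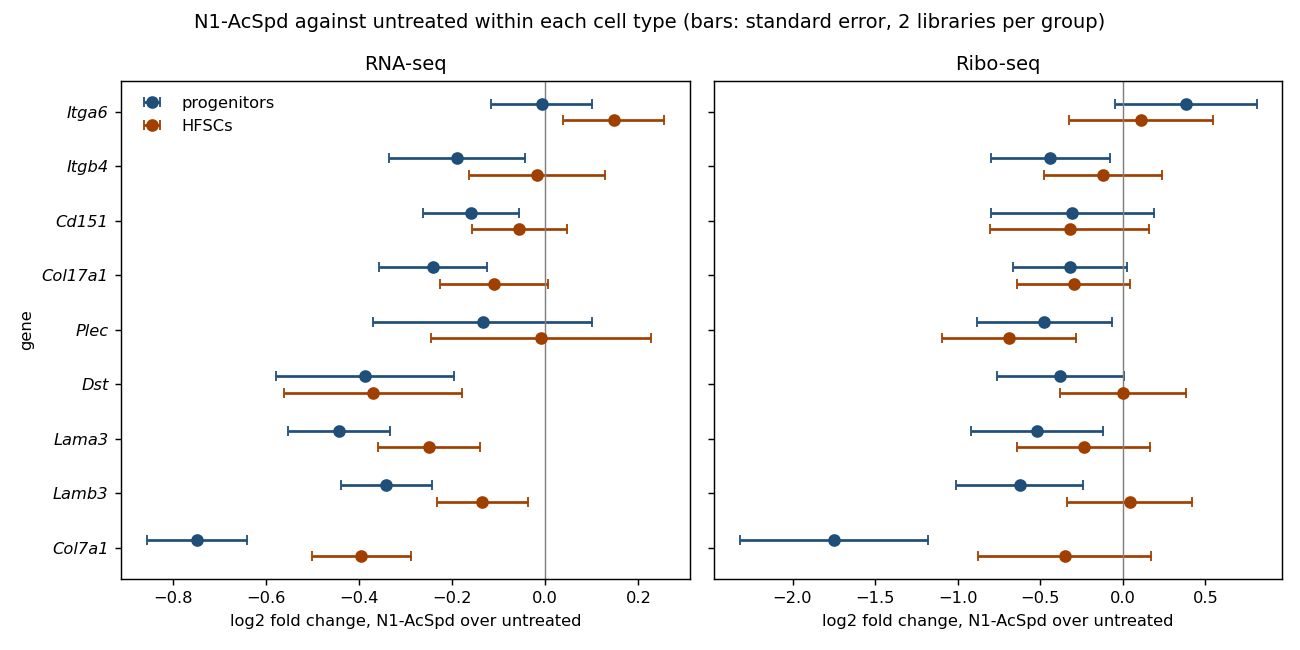
Log2 fold change of N1-AcSpd over untreated for each member in progenitors and HFSCs, by RNA-seq (left) and Ribo-seq (right, on a wider axis), with bars of 1 standard error. Col7a1 in progenitors is farthest below 0 in both assays, and the Ribo-seq bars are wider than the RNA-seq bars.

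The translational efficiency, that is, the change in footprints beyond the change in message in a single fit of the 16 libraries, gave no call. Among 8439 genes, 0 of 9 members and 0% of all genes were called in each of the 6 comparisons by edgeR, and DESeq2 called 0 members. In each of the 6, 0 members passed an unadjusted p of 0.05 by either tool. For N1-AcSpd over both cell types the members ran from −0.50 (Plec, SE 0.297, unadjusted p = 0.108) to 0.17 (Dst, SE 0.256), with a median of −0.15 against −0.06 for all genes. Col7a1 had −0.30 (SE 0.401). Standard errors were 0.19 to 0.40 log2 units. Changes of that size were not detectable at this depth, nor were somewhat larger ones, as the Plec value shows.

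**Figure D4:**
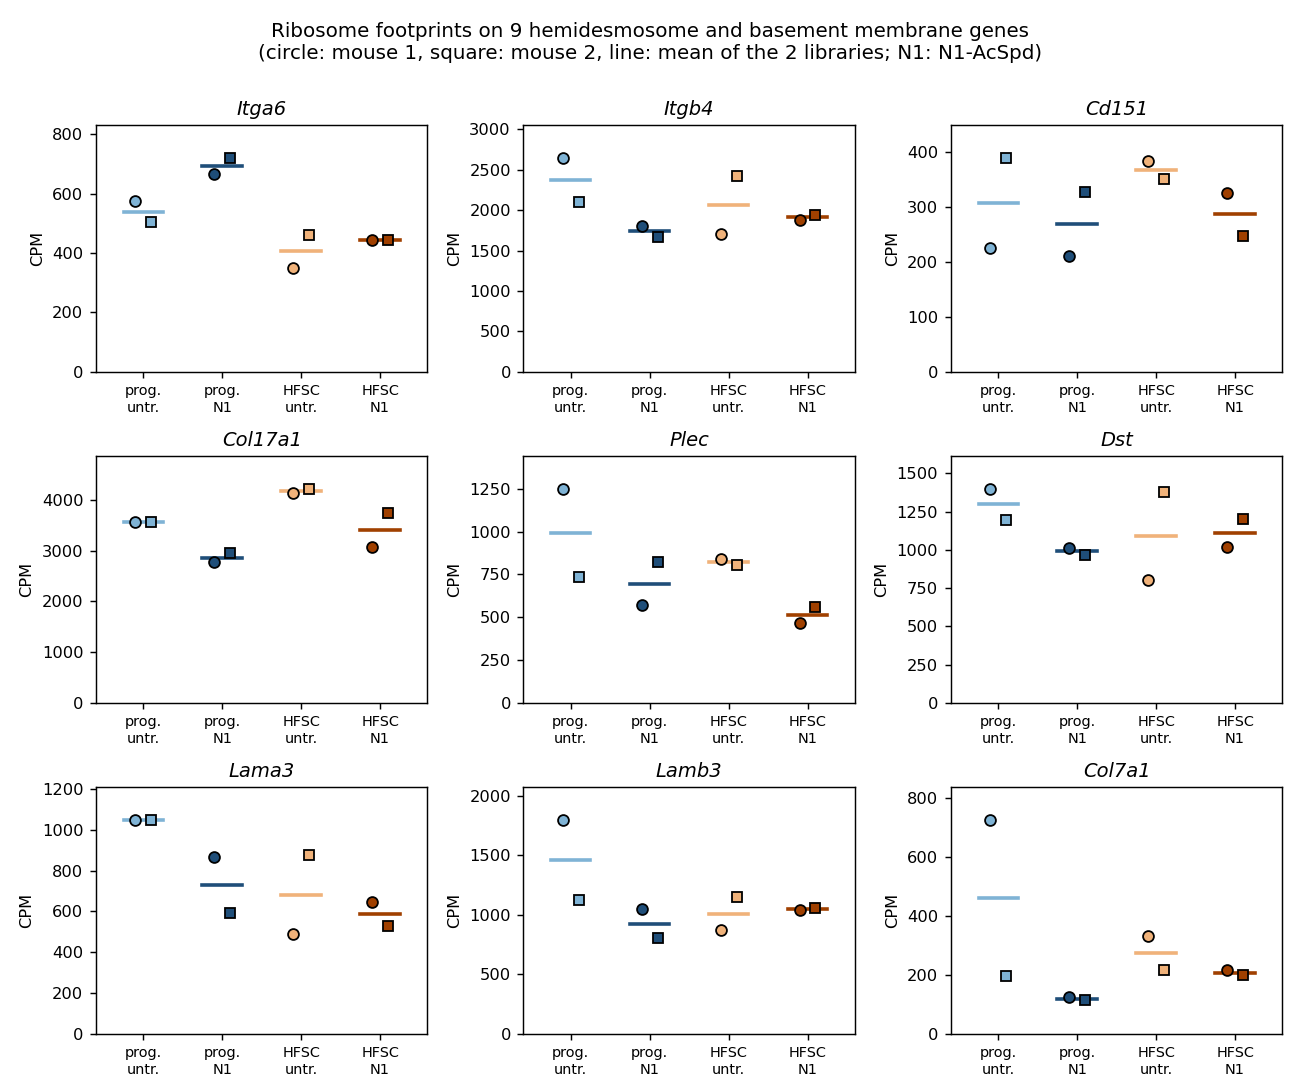
Ribosome footprint level in CPM of each of the 9 members in each Ribo-seq library, drawn as in the plot of RNA-seq levels. Libraries of 1 group are farther apart than in RNA-seq, and the highest Col7a1 value, 725 CPM, comes from 29 footprints in the shallowest library.

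The second comparison set HFSCs against progenitors. Itga6, whose protein is part of the gate for both populations, was the member with the largest RNA-seq difference in the average over treatments. It stood at 979.8 and 945 CPM in untreated progenitors, 983 and 932 in treated progenitors, 802 and 689 in untreated HFSCs, and 803 and 847 in treated HFSCs. All 4 HFSC libraries lay below all 4 progenitor libraries. Averaged over treatments the log2 fold change was −0.29 (SE 0.0768, unadjusted p = 0.00448), which missed the threshold in edgeR (adjusted p = 0.0778) and passed it in DESeq2 (adjusted p = 0.0178). Thus edgeR called 0 of 9 members, 1 at an unadjusted p under 0.05, and DESeq2 called 1, whereas 3.91% of all genes were called. Itgb4 and Cd151, its partners, had log2 fold changes of 0.07 and 0.10, and Itga6 was the member whose pattern ran against the others: its r with the mean of the other 8 was −0.38 over 8 libraries, against 0.51 to 0.87 for the rest.

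In untreated cells 0 members were called by edgeR or DESeq2 (2 at an unadjusted p under 0.05 with each), and 0.148% of genes were called. Itga6 (log2 fold change −0.37, adjusted p = 0.274) and Lama3 (−0.25, adjusted p = 0.503) were the pair below that unadjusted threshold. In treated cells 0 were called (1 at an unadjusted p under 0.05 with each tool), with 0.745% called, and Col7a1 had 0.33 (adjusted p = 0.265). Averaged over treatments, Col17a1, Itgb4, Lamb3, Plec and Dst lay within 0.10 of 0 on the log2 scale. Their standard errors were 0.069 to 0.166, so a difference of that size was not resolved. In Ribo-seq 0 members were called by edgeR or DESeq2 in untreated cells (0.0118% of genes), in treated cells (0.0355%), over both treatments (0.154%) or for the interaction (0%), and 0 passed an unadjusted p of 0.05 with either tool. Itga6 footprints, at 503 to 721 CPM in the 4 progenitor libraries and 349 to 462 CPM in the 4 HFSC libraries, did not overlap either (log2 fold change −0.50, unadjusted p = 0.0997, adjusted p = 1.00).

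**Figure D5:**
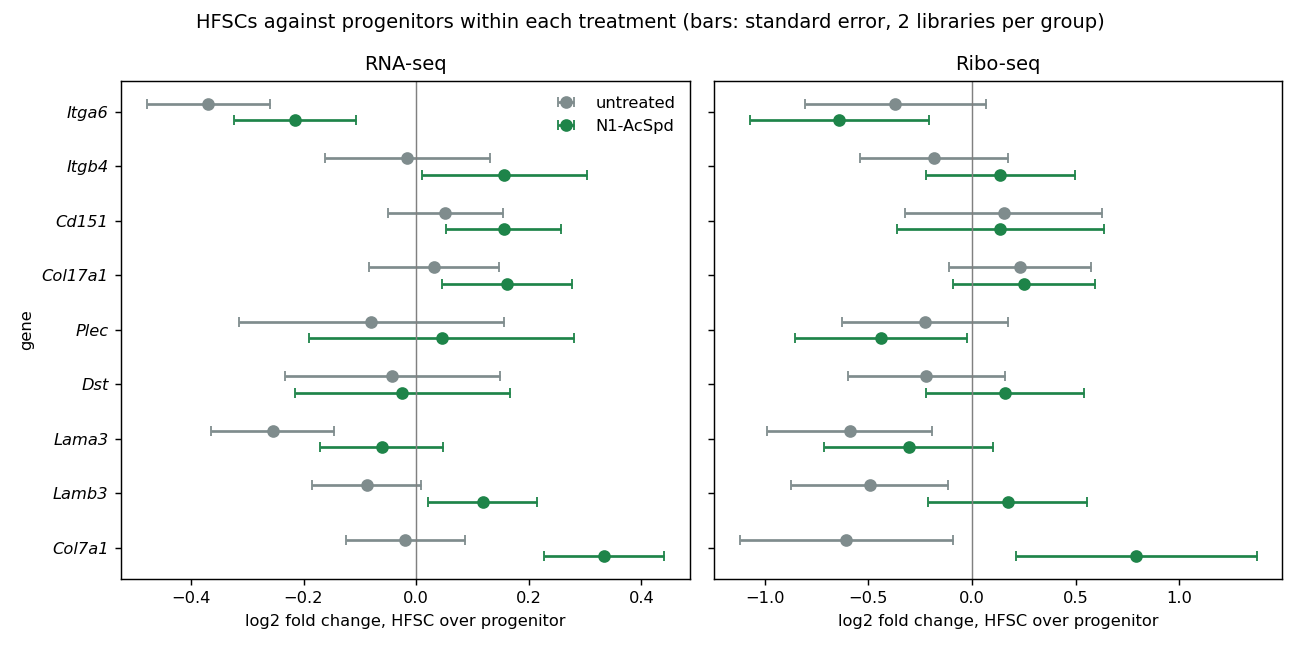
Log2 fold change of HFSCs over progenitors for each member, untreated and with N1-AcSpd, by RNA-seq (left) and Ribo-seq (right, on a wider axis), with bars of 1 standard error. Itga6 lies below 0 in both treatments and both assays.

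Lama3 and Lamb3, the laminin chains among the members, were not called between the cell types averaged over treatments. The log2 fold change of Lamb3 was 0.01 and that of Lama3 −0.16 (adjusted p = 0.334). Itgb1 and Itga3, which make up another laminin receptor, stood at 542 to 692 CPM and at 710.3 to 1282 CPM, and overlapped between the cell types.

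The wider basement membrane gene lists, 87 genes in 6 lists, were read for context. In HFSCs against progenitors over both treatments, 12 of 86 tested genes passed the test in edgeR (3.91% of all genes), 8 higher and 4 lower, and 33 were at an unadjusted p under 0.05 (18.09% of all genes). The collagens of the basement membrane and their linkers were higher for 11 of 13, with a median log2 fold change of 0.68 against −0.01 for all genes, and 2 passed, Col4a4 (2.07) and Col4a6 (0.65). Of the matrix proteins 4 of 13 passed: Pxdn, the peroxidase that crosslinks collagen IV (1.33, adjusted p = 0.00195), Smoc1 (1.88) and the integrin ligand Npnt (1.07) higher, and Tinagl1 (−1.11) lower. Some of these transcripts were scarce. Group means were 0.96 to 4.45 CPM for Col4a4, 0.51 to 4.40 for Smoc1, 5.35 to 17.7 for Npnt and 6.97 to 16.9 for Col4a6. The lowest group mean of a member was 110.6 CPM (Cd151 in treated progenitors). The laminin chain Lama4 was higher (1.02). Of the integrins and laminin receptors, Itgb8 (0.77) and Bcam (0.49), a laminin α5 receptor, were higher, and Itga5 (−0.58), the fibronectin receptor chain, and Cd44 (−0.35), a hyaluronan receptor, lower, among 18. Of 14 focal adhesion linkers 0 passed in edgeR or DESeq2 (1 at an unadjusted p under 0.05 with each), and of 19 proteases and modifying enzymes 0 passed in edgeR (5 at an unadjusted p under 0.05) and 3 in DESeq2. DESeq2 called 20 of the 86 in all. Of the 12, Col4a4, Itgb8, Pxdn and Smoc1 kept the call in each of the 8 fits without 1 library, and with the mouse as a block Cd44 lost it (adjusted p = 0.0594). Within untreated cells the 11 genes named here had the same sign as in the average, from −1.09 (Tinagl1) to 2.17 (Col4a4). In edgeR, Pxdn was called within untreated cells (1.31, adjusted p = 0.0339) and within treated cells (1.36, adjusted p = 0.0172), while DESeq2 called 9 of 86 in each. Both edgeR calls were lost in each fit without 1 library, and the untreated one also with the block (adjusted p = 0.073).

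With N1-AcSpd over both cell types, 3 of 86 passed in edgeR (1.64% of all genes), all lower: Col4a6 (−0.63, adjusted p = 0.0499) and P4ha1 (−0.41, adjusted p = 0.0288) and P4ha2 (−0.39, adjusted p = 0.0465), which encode catalytic subunits of collagen prolyl 4-hydroxylase. Within progenitors their log2 fold changes were −0.71, −0.43 and −0.46. All 4 treated libraries lay below all 4 untreated ones for P4ha1 and for P4ha2, as for Col7a1. These 3 calls were lost in each of the 8 fits without 1 library (adjusted p 0.06 to 0.215) and with the mouse as a block (0.0508 to 0.0688), whereas DESeq2 called 10 of 86. Over the lists 59 of 86 were lower, against 52.89% of all genes, with a median of −0.18 against −0.01. Within progenitors and within HFSCs 0 of 86 passed in edgeR, with 21 and 12 at an unadjusted p under 0.05 (8.87% and 7.73% of all genes), and 1 and 0 in DESeq2. In Ribo-seq, 0 of 67 tested list genes passed with either tool in any of the 7 comparisons, with 0 to 7 at an unadjusted p under 0.05 in edgeR and 0 to 3 in DESeq2.

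Across the 8 RNA-seq libraries the members did not move as a single block. Itgb4 correlated with Plec (r = 0.90) and with Col17a1 (r = 0.88), Lamb3 with Col7a1 (r = 0.87) and Lama3 with Lamb3 (r = 0.82), whereas Itga6 and Itgb4 gave r = −0.48. The genes outside the set most like the mean of the 9 z-scored profiles, among 10168 genes, were Serinc5 (r = 0.97), Slc27a6 (0.96), Pfkp (0.95), Fam120c (0.95) and Zfp799 (0.95). These values describe 8 libraries that share 2 mice and 4 groups, and carry no test.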

How the data were processed

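RNA-seq and Ribo-seq were measured in the 16 libraries described above. Per the labels and methods, the authors sorted organoid cells and depleted rRNA for RNA-seq. For Ribo-seq they digested lysates with nucleases and sequenced the ribosome-protected fragments. They trimmed reads (flexbar), filtered out ribosomal and transfer RNA (Bowtie 1.2.3) and aligned with STAR 2.7.3a to the mouse genome (GRCm38.p5 is named). They then counted per transcript with featureCounts. The deposited values are raw counts of reads per transcript. The counted region, strand use and treatment of multimapping reads are not given in the sources used here. Exons shared with opposite-strand genes cover 11.8% of Dst, 10.3% of Cd151, 9.6% of Itgb4 and 3.5% of Lama3, and reads there cannot be told apart. The authors' own differential translation tables hold fold changes and p-values and were not used, except one for gene names.

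Here, 64026 transcripts were reduced to 22612 genes. Those averaging 1 count or more over the libraries were fitted with edgeR 4.0.16 (quasi-likelihood, TMM, the 4 groups of an assay together) in R 4.3.3, with DESeq2 1.42.0 as an alternative. A gene was called at an adjusted p under 0.05 over all genes tested. There were 7 comparisons per assay, and translational efficiency was the interaction of assay and contrast in 6. The fits were tested on simulated data with independent libraries and no mouse effect, which cannot show how the shared mice affect the p-values. Levels are CPM on TMM-scaled library totals. Replicate numbers are donor mice, so pairing follows from the design, and as the study's methods state no block, the block was an alternative. Same-numbered libraries gave r of −0.57 to 0.59 in RNA-seq and 0.02 to 0.11 in Ribo-seq (2261 genes). The members were named whatever their value, with Cd34, Itgb1, Itga3, every list gene called, and the 5 genes most like the members, except 1 gene that is not reported here and that the list counts include. Members and lists were chosen with earlier results of these data known. Other settings were TMM against other factors, count minimums, summed transcripts, libraries of the comparison alone and each replicate left out.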

Additional observations from a re-analysis of the deposited data

How the results depend on the processing

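Recomputed under the alternatives, the number of members called was within 1.5 times its reported value in 301 cases, larger in 8 and smaller in 10. Members were called only by RNA-seq, for N1-AcSpd in progenitors and over both cell types. In the other comparisons the reported count was 0 and could not become smaller, so most of the 301 cases set 0 against 0. The 10 smaller cases all concern the comparisons with a call. With N1-AcSpd in progenitors, the 1 call (Col7a1) became 0 with a minimum mean of 10 counts, with the replicate block, with counts summed over transcripts, with the libraries of the comparison alone, without the treated HFSC libraries (an alternative chosen after seeing the data), and in each fit without 1 replicate (0 to 0). With N1-AcSpd over both cell types, DESeq2 called 2 (Col7a1, Lama3), and fits without 1 replicate called 0 to 1. For HFSCs against progenitors over both treatments DESeq2 called 1 (Itga6). In Ribo-seq the counts ran from 0 to 1 without 1 replicate, for N1-AcSpd in progenitors and over both cell types. The replicate block changed no other call of a member. Exchanging the mouse numbers of the RNA-seq libraries from treated HFSCs in the block, chosen after seeing the data, called 4 members with N1-AcSpd over both cell types, 2 in progenitors, and 1 for HFSCs against progenitors both untreated and over both treatments. The direction of Plec transcripts with N1-AcSpd over both cell types turned, from −0.28 to 0.14 without 1 replicate, and that of Col7a1 translational efficiency ran from −0.901 to 0.0334, above 0 without Ribo-seq untreated progenitor replicate 1. The cause was not tested. Ribo-seq depth, 34475 to 268052 counts, limits every footprint value.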
